A study of Homo sapiens with 46 samples.

Results

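Integrins, cadherins and protocadherins were followed across the cell types and cell fractions of a human stem cell differentiation series. Members were all genes whose symbol in the 4 count tables, one for each cell type, is ITGA or ITGB with its chain number or letter, CDH with a number, or PCDH with letters or numbers, summed over transcripts by Ensembl gene. The rule found 104 of the 21183 genes in the tables: 18 cadherins, 13 integrin alpha chains, 8 integrin beta chains, 12 non-clustered protocadherins and 53 clustered protocadherins. Per GENCODE gene types, 101 of the 104 are protein coding, and the symbols PCDHB18P, PCDHB19P and PCDHGB8P are those of pseudogenes. The clustered protocadherins, 52 of 53 with coordinates, lie together on chromosome 5 between 140786136 and 141512981 (hg38).

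The series measured total RNA of H1 cells, an established human embryonic stem cell line, in 4 cell types and 4 fractions with 46 libraries. Stem cells (hPSC) were kept in mTeSR1 on Matrigel. Endoderm was induced in RPMI with WNT3A, Activin A and fetal bovine serum (FBS). Mesoderm was induced in DMEM/F12 with FBS, VEGF, BMP4 and bFGF, and with Activin A on the first day, and ectoderm in DMEM/F12 with KOSR, a serum replacement, A83-01, PNU-74654 and Dorsomorphin. The differentiated cells were collected after 5 days. Each culture was split into cytoplasm, whole nucleus, nucleoplasm (soluble nuclear RNA) and chromatin (the nuclear pellet), in buffers that carried α-amanitin, an RNA polymerase inhibitor, for every group. Each of the 16 groups has 3 libraries except mesoderm nucleoplasm, which has 1 and enters no test. The libraries are separate samples by their labels, and nothing says that they came from separate cultures, so p-values measure the spread between these samples, which may be technical. In bulk libraries such as these, fewer cells of a type and less RNA per cell cannot be told apart.

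Cadherins are adhesion proteins that bind a like cadherin on the next cell and are held to actin by catenins inside it. E-cadherin (CDH1) joins epithelial cells and pluripotent stem cell colonies, N-cadherin (CDH2) is typical of neural and mesenchymal cells, and a switch from the first to the second is a classic mark of cells leaving an epithelial state. Integrins pair an alpha with a beta chain to bind laminin, fibronectin or collagen. Protocadherins are related adhesion proteins, best known in neurons. The clustered ones are read from alternative promoters in the alpha, beta and gamma clusters, and many of these promoters carry a short shared element known as the conserved sequence element.

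The promoter windows of 4 PCDHB genes are shown first because PCDHB genes moved together between cell types. Each is the 250 bases before the gene's start on the plus strand of GRCh38.p14 from RefSeq, and the capitals mark TGGCGCT, a string chosen after looking at the sequences. The genes are PCDHB2 (chr5:141094365-141094614), PCDHB9 (chr5:141186911-141187160), PCDHB14 (chr5:141223093-141223342) and PCDHB15 (chr5:141245145-141245394).
PCDHB2: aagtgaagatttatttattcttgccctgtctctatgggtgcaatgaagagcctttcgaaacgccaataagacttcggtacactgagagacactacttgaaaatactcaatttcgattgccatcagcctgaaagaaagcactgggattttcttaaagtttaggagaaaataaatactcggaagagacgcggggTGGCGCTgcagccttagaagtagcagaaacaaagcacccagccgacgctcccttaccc
PCDHB9: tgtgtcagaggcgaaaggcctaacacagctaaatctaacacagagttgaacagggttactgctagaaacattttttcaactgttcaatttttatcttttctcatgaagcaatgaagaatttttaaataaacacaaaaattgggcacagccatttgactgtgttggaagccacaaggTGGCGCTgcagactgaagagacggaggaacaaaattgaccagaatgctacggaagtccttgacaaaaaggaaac
PCDHB14: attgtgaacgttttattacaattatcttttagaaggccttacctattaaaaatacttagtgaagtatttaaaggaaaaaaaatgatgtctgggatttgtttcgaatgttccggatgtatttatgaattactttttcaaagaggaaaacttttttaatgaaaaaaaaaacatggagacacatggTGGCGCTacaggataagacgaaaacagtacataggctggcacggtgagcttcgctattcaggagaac
PCDHB15: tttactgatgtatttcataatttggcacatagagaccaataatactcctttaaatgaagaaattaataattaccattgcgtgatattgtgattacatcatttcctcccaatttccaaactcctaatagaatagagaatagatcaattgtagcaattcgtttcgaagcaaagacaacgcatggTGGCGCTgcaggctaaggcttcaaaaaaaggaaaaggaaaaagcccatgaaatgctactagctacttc
The string began 58, 74, 67 and 68 bases before the gene start of PCDHB2, PCDHB9, PCDHB14 and PCDHB15. On either strand (TGGCGCT or AGCGCCA), 12 of 12 PCDHB windows of 300 bases held it, against 5 of 24 PCDHG windows, 0 of 13 PCDHA windows and 4.08% of 35116 windows of all genes. The shorter string CGCT (or AGCG), which lies within it, was in 98.0% of the clustered protocadherin windows and in 70.0% of all windows. The E-box CAGGTG (or CACCTG), the letters bound by SNAI and ZEB repressors, was in 20.6% of all windows, in 0 of 2 windows of CDH2 and in 8.16% of the clustered protocadherin windows. In all, 79 of the 104 members had a window in the table. CDH1 was not among them, so the E-box was not looked for in its promoter. A match is a description of the letters only.

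Library depth ran from 4990408 to 21298678 counts, of which 0.278% to 9.603% fell on rows with no gene and were left out. The 3 replicates of a group were never identical. Each cell type was counted on a transcript assembly of its own, so cell type and assembly change together and cannot be told apart, and a gene missing from an assembly has no value there. Markers were read as summed TPM, a level scaled per length and per library. A list of 9 stem cell markers summed to 2661.44 to 4671.50 TPM in hPSC libraries, with all 9 listed. The derived cell types held 655.84 to 3004.77 TPM of it, a range that overlaps that of hPSC. Ectoderm libraries held 362.01 to 934.89 TPM of 10 ectoderm markers, 8 of them listed, against 148.56 to 364.28 TPM in hPSC, where 3 are listed. These ranges overlap at their ends, and the sums cover unlike numbers of genes. Endoderm libraries held 215.59 to 321.32 TPM of 10 endoderm markers, against 1.45 to 31.59 TPM in hPSC. Mesoderm libraries held 118.16 to 244.72 TPM of a 10-gene mesoderm list, of which 6 are in their assembly, but MIXL1, MESP1 and KDR are not listed there. Endoderm libraries held as much of that list, 168.22 to 245.16 TPM with 9 genes listed, and hPSC libraries 9.47 to 120.74 TPM, which overlaps the mesoderm range. A trophoblast or amnion list had all its 8 genes in the mesoderm assembly, 7 or 8 of them above 0 in each library, at 414.74 to 782.21 TPM in sum against 14.21 to 26.26 TPM in hPSC, so these cells are called mesoderm-labelled. ISL1 and HAND1 stand in both of the last lists. The part of these markers in the results was not tested.

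The members were not listed evenly. The hPSC assembly held 65 of them, ectoderm 89, endoderm 65 and mesoderm 66. The assemblies shared 40 members: 5 cadherins, 7 integrin alpha chains, 4 integrin beta chains, 3 non-clustered protocadherins and 21 clustered protocadherins. Another 23 members were in a single assembly, among them CDH6 and ITGB8 in ectoderm and ITGB6 in mesoderm. Only 10 of the 40 shared members rested on the same single annotated transcript in all 4 assemblies, which are CDH1, CDH2, ITGA5, PCDHB2, PCDHB11, PCDHGA10, PCDHGB2, PCDHGB5, PCDHGB7 and PCDHGC4. For these the transcript counted was the same across cell types.

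By mean TPM over the groups that list them, ITGB1, the beta chain shared by most integrins, was the highest member at 262.1 TPM, followed by CDH1 at 222.3 TPM and CDH3 (P-cadherin) at 190.6 TPM. CDH2 stood at 105.8 TPM and ITGB5, a partner of the alpha V chain in vitronectin receptors, at 120.6 TPM. Of the alpha chains, ITGA5, the fibronectin receptor chain, led at 89.3 TPM, before ITGA7 at 74.4 TPM and ITGA3 at 43.7 TPM. PCDH1 at 70.4 TPM and PCDH18 at 59.6 TPM led the non-clustered protocadherins. PCDHB5 at 43.3 TPM, PCDHB2 at 36.5 TPM and PCDHGC3 at 33.3 TPM led the clustered ones.

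The ratio of CDH1 to CDH2 RNA fell in each derived cell type and in each fraction, but in the cytoplasm CDH2 moved and CDH1 did not fall. Cytoplasmic CDH2 was 0.93, 2.07 and 2.58 TPM in the hPSC libraries. The ectoderm libraries held 26.32, 15.37 and 22.59 TPM of CDH2 in the cytoplasm, endoderm 28.77, 24.46 and 20.01 TPM, and mesoderm-labelled cells 14.18, 12.79 and 9.64 TPM. All 9 derived libraries lay above the 3 hPSC libraries. CDH2 rose by 3.17 ± 0.20 (SE) on the log2 scale in ectoderm (edgeR quasi-likelihood test with Benjamini-Hochberg adjustment, adjusted p = 2.4e-09), by 3.45 ± 0.20 in endoderm (edgeR, adjusted p = 2.8e-09) and by 2.47 ± 0.20 in mesoderm-labelled cells (edgeR, adjusted p = 6.6e-08). Cytoplasmic CDH1 was 9.61, 13.64 and 18.72 TPM in hPSC. It was 19.14, 11.86 and 18.49 TPM in ectoderm, 17.26, 17.34 and 15.67 TPM in endoderm, and 40.71, 34.57 and 32.08 TPM in mesoderm-labelled cells. The hPSC values overlap those of ectoderm and endoderm, while the mesoderm-labelled libraries lie above them all. CDH1 differed from hPSC by -0.09 ± 0.13 in ectoderm (edgeR, adjusted p = 0.53) and by 0.02 ± 0.13 in endoderm (edgeR, adjusted p = 0.89), neither past the threshold of 0.05, and it rose by 1.14 ± 0.13 in mesoderm-labelled cells (edgeR, adjusted p = 2.1e-06). Between the derived cells, CDH1 was 1.24 lower in ectoderm than in mesoderm-labelled cells on the log2 scale (-1.24 ± 0.13) and CDH2 was 0.70 ± 0.17 higher, both called by edgeR, with adjusted p = 9.9e-07 and 0.0028.

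**Figure D1:**
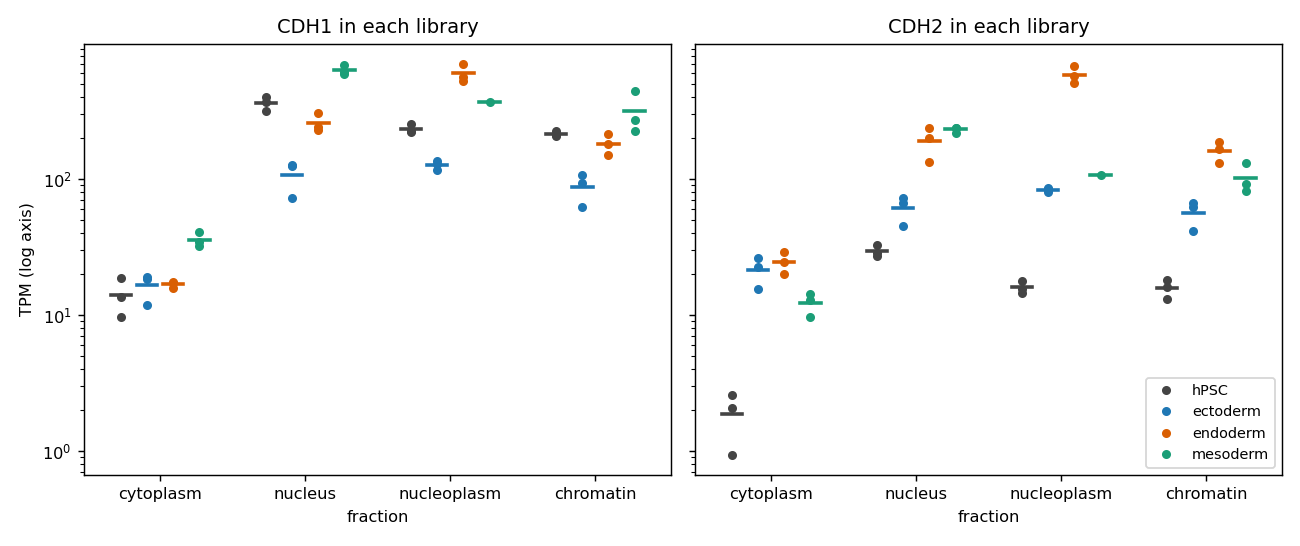
TPM (log axis) of CDH1 (left) and CDH2 (right) in every library, by fraction and coloured by cell type, with a bar at each group's mean. The 3 hPSC libraries have the lowest CDH2 of the 4 cell types in every fraction, and CDH1 of ectoderm is the lowest in nucleus, nucleoplasm and chromatin.

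In the nuclear fractions CDH1 did fall, in ectoderm. Chromatin held 224.17, 205.76 and 209.32 TPM of CDH1 in hPSC and 93.35, 61.9 and 106.26 TPM in ectoderm, with no overlap. The change of CDH1 was -1.61 ± 0.24 on chromatin (edgeR, adjusted p = 4.9e-05), -1.52 ± 0.17 in the nucleus (edgeR, adjusted p = 4.6e-06) and -1.10 ± 0.08 in the nucleoplasm (edgeR, adjusted p = 5.8e-11). In endoderm the CDH1 change was -0.03 ± 0.23 on chromatin (edgeR, adjusted p = 0.92) and -0.14 ± 0.17 in the nucleus (edgeR, adjusted p = 0.48; -0.55 with total counts in place of TMM factors, edgeR, adjusted p = 0.0096), but CDH1 rose by 1.64 ± 0.08 in the nucleoplasm (edgeR, adjusted p = 7.3e-14). There the endoderm libraries held 703.55, 525.58 and 560.14 TPM of CDH1 and the hPSC libraries 220.88, 253.25 and 224.6 TPM. In mesoderm-labelled nuclei the CDH1 result rested on the unit: counts gave -0.10 ± 0.17 (edgeR, adjusted p = 0.62), whereas the authors' TPM gave a rise of 0.81 (limma, adjusted p = 0.0028). CDH2 rose in every nuclear comparison. On chromatin CDH2 was 18.12, 15.92 and 13.17 TPM in hPSC, 66.11, 41.29 and 61.91 TPM in ectoderm, 166.77, 185.05 and 129.92 TPM in endoderm, and 82, 91.25 and 129.94 TPM in mesoderm-labelled cells. The chromatin change was 1.52 ± 0.20, 3.56 ± 0.22 and 2.38 ± 0.21 in that order (edgeR, adjusted p = 2e-05, 2.4e-08 and 7e-07). The largest change of CDH2 among those tested was in endoderm nucleoplasm, where 14.54, 17.84 and 15.62 TPM in hPSC stood against 669.52, 506.65 and 569.69 TPM, a rise of 5.47 ± 0.09 (edgeR, adjusted p = 5.9e-22).

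As a ratio of counts within a library, which no scaling between libraries can move, CDH1 exceeded CDH2 by 7.99 to 12.49 times in hPSC cytoplasm. The ratio was 0.88 to 0.99 in ectoderm cytoplasm, 0.73 to 0.95 in endoderm cytoplasm and 3.27 to 4.04 in mesoderm-labelled cytoplasm. On chromatin it was 15.02 to 19.30 in hPSC, 1.71 to 2.08 in ectoderm, 1.30 to 1.40 in endoderm and 3.32 to 4.16 in mesoderm-labelled cells. CDH2 thus outnumbered CDH1 in counts only in the cytoplasm of ectoderm and endoderm, among the groups with 3 libraries. The log2 ratio differed from that of hPSC by -3.35 ± 0.20 (SE) in ectoderm cytoplasm, -3.50 ± 0.22 in endoderm cytoplasm and -1.41 ± 0.21 in mesoderm-labelled cytoplasm. Over the 11 comparisons the differences ran from -3.83 (endoderm nucleoplasm) to -1.41, and the libraries of the compared groups never overlapped. Each had p = 0.1 in a two-sided exact permutation test over 20 arrangements (adjusted p = 0.1), the smallest that 3 against 3 libraries can give. The single mesoderm nucleoplasm library had a ratio of 4.17. Both genes rest on the same annotated transcript in all assemblies.

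Of the 5 cadherins shared by the assemblies, 2 rose and 1 fell in ectoderm cytoplasm, 3 rose in endoderm and 4 rose in mesoderm-labelled cells. In these comparisons 75.9%, 58.1% and 68.0% of all genes were called, and 38.0%, 29.6% and 34.6% were higher. CDH11, a mesenchymal cadherin, was 0.53, 0.77 and 1.15 TPM in hPSC cytoplasm and 19.77, 13.56 and 19.02 TPM in ectoderm cytoplasm. Endoderm held 5.85, 4.5 and 3.66 TPM and mesoderm-labelled cells 0.79, 0.64 and 0.59 TPM, so that only the last overlap hPSC. CDH11 rose by 5.11 ± 0.19 in ectoderm (edgeR, adjusted p = 1.4e-11) and by 2.60 ± 0.19 in endoderm (edgeR, adjusted p = 2.9e-08). CDH13, a cadherin held to the membrane by a lipid anchor, was 0.12, 0.28 and 0.25 TPM in hPSC cytoplasm against 3.15, 6.35 and 1.88 TPM in mesoderm-labelled cytoplasm. The groups do not overlap, and CDH13 rose by 4.13 ± 0.31 there (edgeR, adjusted p = 2.6e-08) and by 3.75 ± 0.30 in the nucleus (edgeR, adjusted p = 2.7e-07). In ectoderm CDH13 fell on chromatin (-2.54 ± 0.35, edgeR, adjusted p = 2.8e-05). None of the CDH13 transcripts matched an annotated one in any assembly, and the hPSC transcript of CDH11 did not either. CDH3 was 10.54, 14.08 and 17.04 TPM in hPSC cytoplasm and 40.03, 37.82 and 31.98 TPM in mesoderm-labelled cytoplasm, without overlap, and rose by 1.15 ± 0.10 there (edgeR, adjusted p = 2e-07). On chromatin, ectoderm CDH3 fell (-1.41 ± 0.18, edgeR, adjusted p = 1.2e-05), as CDH1 did. CDH6, a cadherin of early neural tissue, was listed in ectoderm only, at 13.94, 9.58 and 11.81 TPM in the cytoplasm. CDH24, listed outside endoderm, rose in a fit of only the 2 groups compared: 6.55, 7.1 and 8.58 TPM in hPSC cytoplasm stood against 21.48, 17.47 and 23.68 TPM in ectoderm (1.14 ± 0.11, edgeR, adjusted p = 9.9e-06).

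Set against all genes, the share of members called in the cytoplasm was near the background in each derived cell type. The number called, with no minimum fold change, is thus not a result about the members. What stood apart was the direction in ectoderm and mesoderm-labelled cells, and the share of calls of at least 2-fold. Of 39 members tested in ectoderm cytoplasm, 28 were higher and 4 lower than in hPSC, where 75.9% of all 10679 genes tested were called. In endoderm 11 were higher and 8 lower (58.1% of all genes called), and in mesoderm-labelled cells 24 were higher and 4 lower (68.0%). The median log2 change of the members was 2.00 in ectoderm, 0.08 in endoderm and 0.90 in mesoderm-labelled cells, beside medians of all genes of 0.01 or nearer to 0. By direction, 38.0% of all genes were called higher in ectoderm, 29.6% in endoderm and 34.6% in mesoderm-labelled cells. Among calls of at least 2-fold there were 26 of 39 members in ectoderm (38.1% of all genes), 12 of 39 in endoderm (18.2%) and 18 of 39 in mesoderm-labelled cells (26.0%). The share of members was above that of all genes in each, a difference that was not tested. A fit of only the 2 groups compared, over the genes in both assemblies, took in more members: 39 of 53 were higher and 3 lower in ectoderm (73.2% of all genes called), 15 of 43 higher and 9 lower in endoderm (50.9%), and 28 of 44 higher and 5 lower in mesoderm-labelled cells (65.8%). Of the 10 members with the same annotated transcript in all assemblies, 9 were higher in ectoderm cytoplasm, 2 in endoderm and 6 in mesoderm-labelled cells, and none was lower.

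Of 10 integrins tested in the cytoplasm, 5 rose and 2 fell in ectoderm (75.9% of all genes called, 38.0% higher), 6 rose and 3 fell in endoderm (58.1%, 29.6% higher), and 7 rose and 3 fell in mesoderm-labelled cells (68.0%, 34.6% higher). With 10 genes, these counts are a description of the members tested. ITGA5 was 3.27, 2.78 and 3.75 TPM in hPSC cytoplasm. It was 19.92, 13.5 and 18 TPM in ectoderm, 20.57, 14.93 and 16.13 TPM in endoderm, and 8.04, 7.01 and 6.32 TPM in mesoderm-labelled cells, all above hPSC. ITGA5 rose by 2.06 ± 0.14 in ectoderm (edgeR, adjusted p = 5.1e-09) and by 2.14 ± 0.14 in endoderm (edgeR, adjusted p = 8.6e-09). In endoderm nucleoplasm it reached 301.64, 253.56 and 265.3 TPM against 22.35, 25.64 and 25.29 TPM in hPSC, a rise of 3.78 ± 0.08 (edgeR, adjusted p = 4.4e-20). ITGAV, the alpha V chain of RGD-binding integrins, was 1.75, 1.46 and 2.09 TPM in hPSC cytoplasm and 11.8, 5.19 and 9.18 TPM in ectoderm. Endoderm held 7.02, 5.93 and 4.53 TPM of ITGAV and mesoderm-labelled cells 10.77, 7.48 and 5.55 TPM, again all above hPSC. The change of ITGAV was 1.96 ± 0.23, 0.78 ± 0.24 and 1.98 ± 0.23 (edgeR, adjusted p = 2.2e-06, 0.011 and 3.4e-06). The endoderm call of ITGAV rested on single libraries: it was 0.58 without hPSC cytoplasm replicate 2 (edgeR, adjusted p = 0.076) and 0.66 without endoderm cytoplasm replicate 1 (edgeR, adjusted p = 0.053). The endoderm transcript of ITGAV matched no annotated one.

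**Figure D2:**
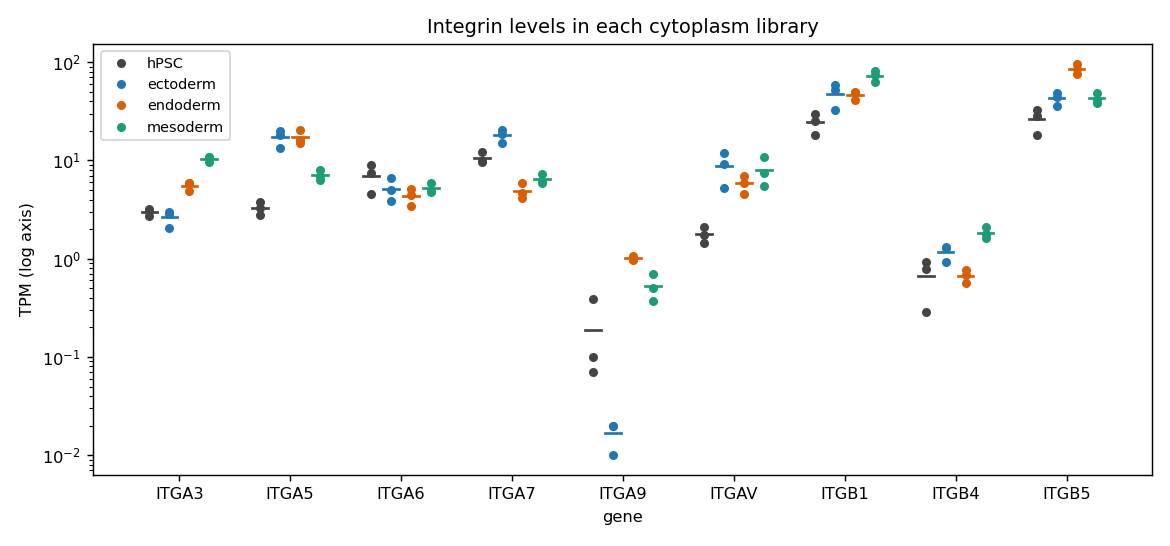
TPM (log axis) of 9 integrins in each cytoplasm library, coloured by cell type, with a bar at the mean of 3 libraries. ITGA5, ITGAV and ITGB1 of all derived libraries lie above hPSC, while ITGA9 is high in endoderm and mesoderm-labelled cells and lowest in ectoderm.

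Laminin-binding alpha chains parted ways. ITGA6, a laminin receptor chain typical of stem cell colonies on Matrigel, was 4.55, 7.47 and 9.04 TPM in hPSC cytoplasm, 6.56, 3.9 and 5.04 TPM in ectoderm, 3.46, 5.08 and 4.47 TPM in endoderm and 5.91, 4.91 and 4.73 TPM in mesoderm-labelled cells. The TPM values overlap, but on counts ITGA6 fell by 0.73 ± 0.18, 1.09 ± 0.18 and 0.65 ± 0.18 in the cytoplasm (edgeR, adjusted p = 0.0018, 0.00014 and 0.0052). On the log2(TPM + 1) scale the ITGA6 change did not pass in ectoderm (-0.36, limma, adjusted p = 0.13) or in mesoderm-labelled cells (-0.34, limma, adjusted p = 0.17). In the nucleus the groups were far apart: 89.64, 135.33 and 113.07 TPM of ITGA6 in hPSC, 16.37, 7.71 and 14.38 TPM in ectoderm, and 5.9, 16.05 and 18.57 TPM in endoderm. The nuclear change of ITGA6 was -2.89 ± 0.27 in ectoderm (edgeR, adjusted p = 7.1e-07) and -2.96 ± 0.27 in endoderm (edgeR, adjusted p = 8.2e-07). The endoderm transcript of ITGA6 matched no annotated one. ITGA3, another laminin receptor chain, was 2.69, 3.04 and 3.22 TPM in hPSC cytoplasm and 10.77, 10.8 and 9.67 TPM in mesoderm-labelled cytoplasm, without overlap. It rose by 1.67 ± 0.11 there (edgeR, adjusted p = 5.5e-09) and fell by 0.45 ± 0.11 in ectoderm (edgeR, adjusted p = 0.0022), where its 3, 2.07 and 2.87 TPM overlap hPSC and the fall did not pass on TPM (-0.14, limma, adjusted p = 0.51). ITGA7, the muscle laminin receptor chain, was 9.86, 9.73 and 12.08 TPM in hPSC cytoplasm and 4.17, 4.67 and 5.91 TPM in endoderm, and fell by 1.23 ± 0.14 (edgeR, adjusted p = 4.9e-06). In ectoderm ITGA7 was 18.43, 15.12 and 20.3 TPM and rose by 0.57 ± 0.14 (edgeR, adjusted p = 0.0016).

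ITGA9, a chain that binds tenascin and other matrix proteins, was 0.1, 0.07 and 0.39 TPM in hPSC cytoplasm, from 2, 2 and 11 counts. It was 1, 1.07 and 0.98 TPM in endoderm and 0.7, 0.5 and 0.37 TPM in mesoderm-labelled cells, of which the lowest falls within the hPSC range. ITGA9 rose by 4.02 ± 0.40 in endoderm (edgeR, adjusted p = 7.7e-07) and by 3.13 ± 0.42 in mesoderm-labelled cells (edgeR, adjusted p = 1.2e-05), and fell in the ectoderm nucleus (-3.35 ± 0.34, edgeR, adjusted p = 1.9e-06). Its counted transcript was not the same in every assembly, and the hPSC one matched no annotated transcript. ITGAE, the alpha chain known from T cells that bind E-cadherin, was counted on processed, intron-retaining or unannotated transcripts, with no protein-coding one. In endoderm chromatin ITGAE rose by 1.74 ± 0.17 on counts (edgeR, adjusted p = 1.8e-06), yet the TPM change was -0.62 (limma, adjusted p = 0.077).

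Of the 3 beta chains tested in the cytoplasm, 2 rose in ectoderm, 2 in endoderm and 3 in mesoderm-labelled cells, with none called lower, where 75.9%, 58.1% and 68.0% of all genes were called. ITGB1 was 17.99, 25.37 and 29.8 TPM in hPSC cytoplasm, 58.4, 32.47 and 51.61 TPM in ectoderm, 49.33, 48.96 and 41.19 TPM in endoderm and 80.78, 74.71 and 63.53 TPM in mesoderm-labelled cells. Every derived library lies above hPSC. ITGB1 rose by 0.61 ± 0.12, 0.69 ± 0.12 and 1.34 ± 0.12 in that order (edgeR, adjusted p = 0.00029, 0.00021 and 1.9e-07). On ectoderm chromatin, ITGB1 went the other way (-1.01 ± 0.28, edgeR, adjusted p = 0.0062), though not past the threshold on TPM (-0.63, limma, adjusted p = 0.086). ITGB5 was 18.08, 28.34 and 32.39 TPM in hPSC cytoplasm and 96.79, 76.07 and 85.02 TPM in endoderm, a rise of 1.44 ± 0.11 (edgeR, adjusted p = 6.8e-08). ITGB4, the partner of ITGA6 in epithelial hemidesmosomes, was 0.78, 0.93 and 0.29 TPM in hPSC cytoplasm and 1.79, 2.12 and 1.63 TPM in mesoderm-labelled cytoplasm, and rose by 1.91 ± 0.26 (edgeR, adjusted p = 1.3e-05). ITGB6, a chain of epithelia, was listed only in mesoderm-labelled cells, at 2.62, 2.35 and 2.24 TPM in the cytoplasm. In the 2-group fit, ITGA2, a collagen receptor chain, was 0.08, 0.16 and 0.23 TPM in hPSC cytoplasm and 2.07, 1.72 and 1.49 TPM in mesoderm-labelled cytoplasm, a rise of 3.21 ± 0.25 (edgeR, adjusted p = 7.1e-06). These are the cells that also carried the trophoblast or amnion markers, whose part in these integrin levels was not tested.

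PCDH1, an epithelial non-clustered protocadherin, fell in the cytoplasm of all 3 derived cell types. It was 12.57, 16.53 and 19.36 TPM in hPSC cytoplasm, 7.21, 5.17 and 7.86 TPM in ectoderm, 7.4, 9.52 and 12.14 TPM in endoderm and 4.9, 4.82 and 3.74 TPM in mesoderm-labelled cells, all below hPSC. PCDH1 fell by 1.31 ± 0.14 in ectoderm (edgeR, adjusted p = 8.2e-07), by 1.30 ± 0.14 in endoderm (edgeR, adjusted p = 2.5e-06) and by 1.92 ± 0.15 in mesoderm-labelled cells (edgeR, adjusted p = 3.7e-08), and in ectoderm chromatin it changed by -2.59 ± 0.22 (edgeR, adjusted p = 3.2e-07). PCDH18, not listed in endoderm, was 2.1, 2.6 and 2.84 TPM in hPSC cytoplasm and 51.09, 30.03 and 43.96 TPM in ectoderm, far apart, and rose by 3.72 ± 0.14 in the 2-group fit (edgeR, adjusted p = 3.6e-08). PCDH10 was 0.43, 0.45 and 0.91 TPM in hPSC cytoplasm and 15.7, 11.96 and 10.65 TPM in endoderm, and rose by 4.52 ± 0.23 in the 2-group fit (edgeR, adjusted p = 1.8e-07). It is not listed in ectoderm. PCDH7 rose by 7.40 ± 0.24 in ectoderm nucleoplasm and by 7.95 ± 0.23 in endoderm nucleoplasm on counts (edgeR, adjusted p = 7.1e-17 and 8.8e-18). Per length the difference was smaller: 3.63, 1.15 and 0 TPM in hPSC nucleoplasm against 6.42, 8.08 and 7.62 TPM in ectoderm and 19.7, 14.63 and 16.22 TPM in endoderm. PCDH7 was counted on 1 transcript in hPSC, 8 in ectoderm and 1 unannotated transcript in endoderm. With that and an hPSC library at 0 TPM, the size of these rises is uncertain. PCDH11X and its near-identical copy PCDH11Y can share reads, so their values are uncertain and are not described further.

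The clustered protocadherins rose together in ectoderm. In the cytoplasm 19 of 21 tested were higher than in hPSC and none lower, with a median log2 change of 2.27. There 75.9% of all genes were called and 38.0% were higher. In mesoderm-labelled cells 12 of 21 were higher and none lower (median 0.82), where 68.0% of all genes were called and 34.6% higher. In endoderm 2 were higher and 2 lower (median 0.08), where 58.1% of all genes were called and 29.6% higher. By cluster, ectoderm raised 9 of 9 PCDHB genes (median 2.66), 9 of 9 PCDHG genes (median 2.18) and 1 of 3 PCDHA genes (median -0.16). Between derived cells, 20 of 21 were higher in ectoderm than in endoderm (72.0% of all genes called, 34.0% higher) and 17 of 21 higher in ectoderm than in mesoderm-labelled cells (61.2%, 28.7% higher), while 10 were lower in endoderm than in mesoderm-labelled cells and none higher (54.4%, 25.7% lower). Near-identical sequence and exons shared within the alpha and gamma clusters mean that the counting can split reads between neighbours, so a single gene of a cluster is less certain than its cluster.

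PCDHB2 was 2.29, 2.77 and 2.92 TPM in hPSC cytoplasm and 20.33, 13.27 and 19.3 TPM in ectoderm. Endoderm held 3.17, 3.37 and 3.31 TPM and mesoderm-labelled cells 5.61, 4.89 and 5.08 TPM, so ectoderm stood apart from all others. PCDHB2 rose by 2.39 ± 0.12 in ectoderm (edgeR, adjusted p = 1.6e-10) and by 0.75 ± 0.12 in mesoderm-labelled cells (edgeR, adjusted p = 5.5e-05), and differed by 0.05 in endoderm (edgeR, adjusted p = 0.74). PCDHB9 was 0.09, 0.23 and 0.2 TPM in hPSC cytoplasm and 2.89, 1.82 and 2.66 TPM in ectoderm, and rose by 4.29 ± 0.32 (edgeR, adjusted p = 1.3e-08). PCDHB11 was 0, 0.07 and 0.05 TPM in hPSC cytoplasm and 1.48, 1.41 and 1.25 TPM in ectoderm, and rose by 4.57 ± 0.49 (edgeR, adjusted p = 7.1e-07). The hPSC values of PCDHB9 and PCDHB11 are near 0, so the size of these 2 rises is uncertain. PCDHB14, whose promoter is printed above, was 0.27, 0.57 and 0.46 TPM in hPSC cytoplasm and 4.29, 3.17 and 4.65 TPM in ectoderm, again without overlap, and rose by 3.51 ± 0.25 (edgeR, adjusted p = 6.7e-09). The hPSC transcripts of PCDHB9 and PCDHB14 matched no annotated one, whereas those of ectoderm did. PCDHB15 was 2.75, 1.63 and 2.05 TPM in hPSC cytoplasm, 13.73, 10.28 and 13.93 TPM in ectoderm and 1.27, 1.64 and 1.43 TPM in endoderm. PCDHB15, like PCDHB14 named for its promoter after its values were seen, rose by 2.23 ± 0.22 in ectoderm (edgeR, adjusted p = 3e-07) and fell by 0.92 ± 0.24 in endoderm (edgeR, adjusted p = 0.0048). PCDHGB7 was 0.21, 0.46 and 0.92 TPM in hPSC cytoplasm, 15.26, 9 and 14.93 TPM in ectoderm, 1.1, 1.01 and 0.87 TPM in endoderm and 2.98, 2.72 and 2.12 TPM in mesoderm-labelled cells. It rose by 4.26 ± 0.25 in ectoderm (edgeR, adjusted p = 8.8e-10) and by 2.05 ± 0.26 in mesoderm-labelled cells (edgeR, adjusted p = 5.4e-06). PCDHGC3, one of the C-type genes at the end of the gamma cluster, moved less: 3.07, 4.99 and 4.91 TPM in hPSC cytoplasm overlapped 5.5, 3.29 and 5.59 TPM in ectoderm, where counts gave a rise of 0.67 ± 0.15 (edgeR, adjusted p = 0.00096).

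**Figure D3:**
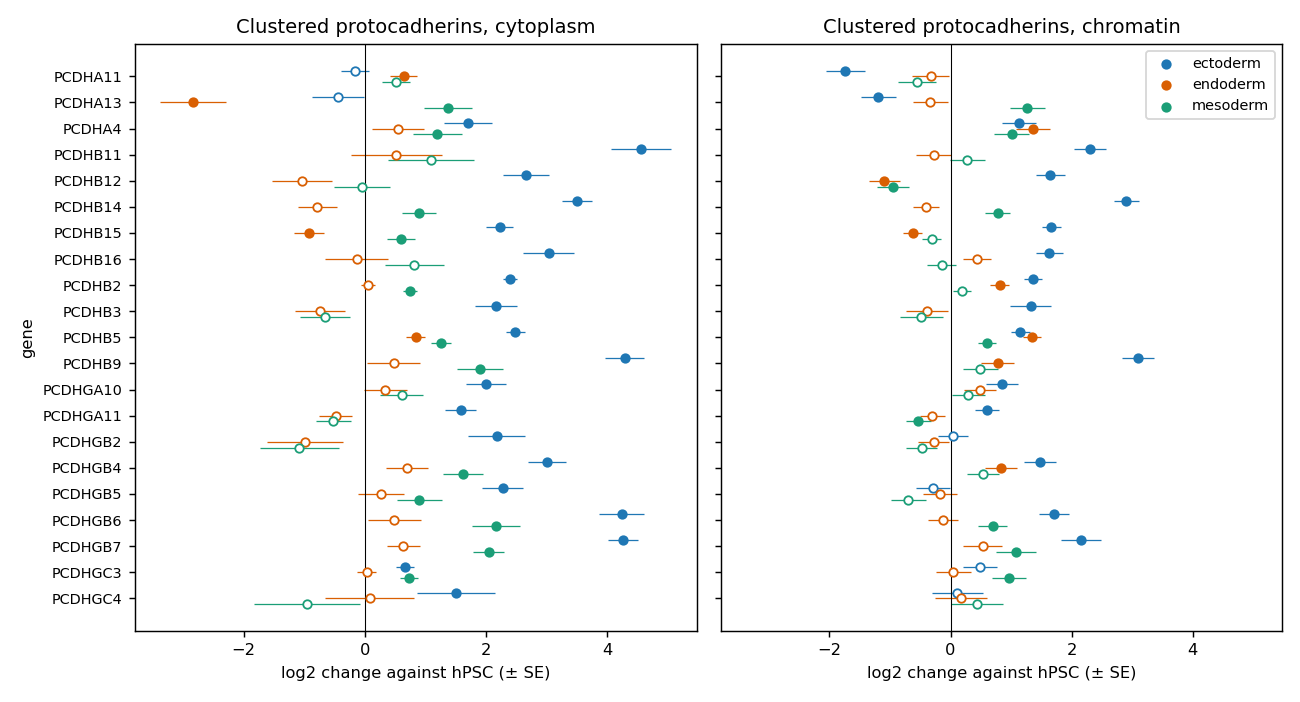
Log2 change against hPSC (± SE) of the 21 clustered protocadherins present in all assemblies, in the cytoplasm (left) and on chromatin (right), with 3 libraries a group. Filled points passed an adjusted p of 0.05 in edgeR and open points did not. In the cytoplasm the PCDHB and PCDHG genes of ectoderm lie to the right of 0, and the PCDHA genes PCDHA11 and PCDHA13 do not.

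The alpha cluster behaved differently from gene to gene. PCDHA13 was 0.49, 0.83 and 0.76 TPM in hPSC cytoplasm, 0.13, 0 and 0.26 TPM in endoderm and 2.48, 1.97 and 2.21 TPM in mesoderm-labelled cells, which do not overlap. It changed by -2.83 ± 0.55 in endoderm cytoplasm (edgeR, adjusted p = 0.00048), and in the ectoderm nucleus by -2.48 ± 0.22 (edgeR, adjusted p = 5.8e-07). In the mesoderm-labelled nucleus, PCDHA13 was 23.13, 28.53 and 31.66 TPM against 3.48, 4.78 and 3.65 TPM in hPSC, a rise of 1.86 ± 0.20 (edgeR, adjusted p = 4.1e-06). PCDHA11 fell on ectoderm chromatin (-1.74 ± 0.32, edgeR, adjusted p = 0.00031). PCDHA10, not listed in mesoderm, was 0.59, 0.79 and 0.53 TPM in hPSC nucleoplasm, 7.95, 9.64 and 9.65 TPM in ectoderm and 13.51, 9.14 and 11.11 TPM in endoderm. It rose by 4.70 ± 0.17 and 5.63 ± 0.16 (edgeR, adjusted p = 3e-16 and 6.6e-18). None of the PCDHA13 transcripts matched an annotated one in any assembly, and the hPSC transcript of PCDHA10 did not either. For these genes the cell types were thus not counted on the same annotated transcript.

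In the nuclear fractions the members were also called in both directions. On chromatin, of 40 members tested, 23 were higher and 11 lower in ectoderm (62.9% of all genes called), 15 higher and 6 lower in endoderm (61.8%), and 18 higher and 4 lower in mesoderm-labelled cells (54.5%). In the nucleus the counts were 17 and 15 in ectoderm (57.6%), 16 and 10 in endoderm (57.4%), and 12 and 10 in mesoderm-labelled cells (54.0%). The last 2 splits rest on the scaling: with total counts in place of TMM factors they became 12 and 14 in endoderm and 19 and 7 in mesoderm-labelled cells. In the nucleoplasm, of 47 members, 30 were higher and 11 lower in ectoderm (79.5% of all genes called, 39.7% higher), and 39 were higher and 5 lower in endoderm (76.7%, 38.1% higher). Integrins of endoderm nucleoplasm were 10 higher and 1 lower of 11, with a median of 2.07, and clustered protocadherins 22 higher and none lower of 25, with a median of 1.38. PCDHB5, for example, was 17.63, 22.4 and 21.49 TPM in hPSC nucleoplasm and 117.78, 95.77 and 105.04 TPM in endoderm (2.93 ± 0.08, edgeR, adjusted p = 5.6e-18). With total counts in place of TMM factors, the split of all members in endoderm nucleoplasm became 33 higher and 7 lower. Whether the nucleoplasm changes differ from those in the cytoplasm was not tested, and the nucleoplasm fit took in more members.

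Whether a change differed between cytoplasm and chromatin was tested as a difference of differences in edgeR (the chromatin change minus the cytoplasm change, with all libraries of both fractions in 1 fit). In ectoderm 24 of 40 members had a lower change on chromatin and 1 a higher one (23.3% of all 10695 genes tested were called, and 14.0% were called lower). The median over the members was -1.21, beside -0.08 over all genes. For the 10 members with the same transcript in all assemblies, 9 were lower and none higher, with a median of -1.66. In endoderm 5 members were higher and 1 lower (40.8% of all genes), and in mesoderm-labelled cells 9 were lower and none higher (23.0%, 16.1% lower). The mesoderm-labelled share is near that of all genes, and the endoderm share is below it. CDH1 had a difference of -1.59 ± 0.28 in ectoderm (edgeR, adjusted p = 0.00018) and -1.01 ± 0.27 in mesoderm-labelled cells (edgeR, adjusted p = 0.011). CDH2 had -1.73 ± 0.29 in ectoderm (edgeR, adjusted p = 0.00015): both cadherins, like most members, were higher relative to hPSC in the ectoderm cytoplasm than on its chromatin. PCDHGB5 had the largest difference of the named members, -2.63 ± 0.45 (edgeR, adjusted p = 0.00014). It was 0.2, 0.15 and 0.28 TPM in hPSC cytoplasm and 0.93, 1.17 and 1.74 TPM in ectoderm, apart from each other, while chromatin held 4.74, 4.28 and 5.83 TPM and 6.96, 3.76 and 4.52 TPM, which overlap. With the authors' TPM and limma, 9 members were called in ectoderm in place of 25 and 1 in mesoderm-labelled cells in place of 9, the latter 5 with total counts in place of TMM factors. On TPM PCDHGB5 in ectoderm (-0.90, limma, adjusted p = 0.058) and CDH1 in mesoderm-labelled cells (-0.84, limma, adjusted p = 0.12) did not pass. With RLE size factors the endoderm split became 8 higher and none lower, and the mesoderm-labelled split 1 higher and 5 lower.

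**Figure D4:**
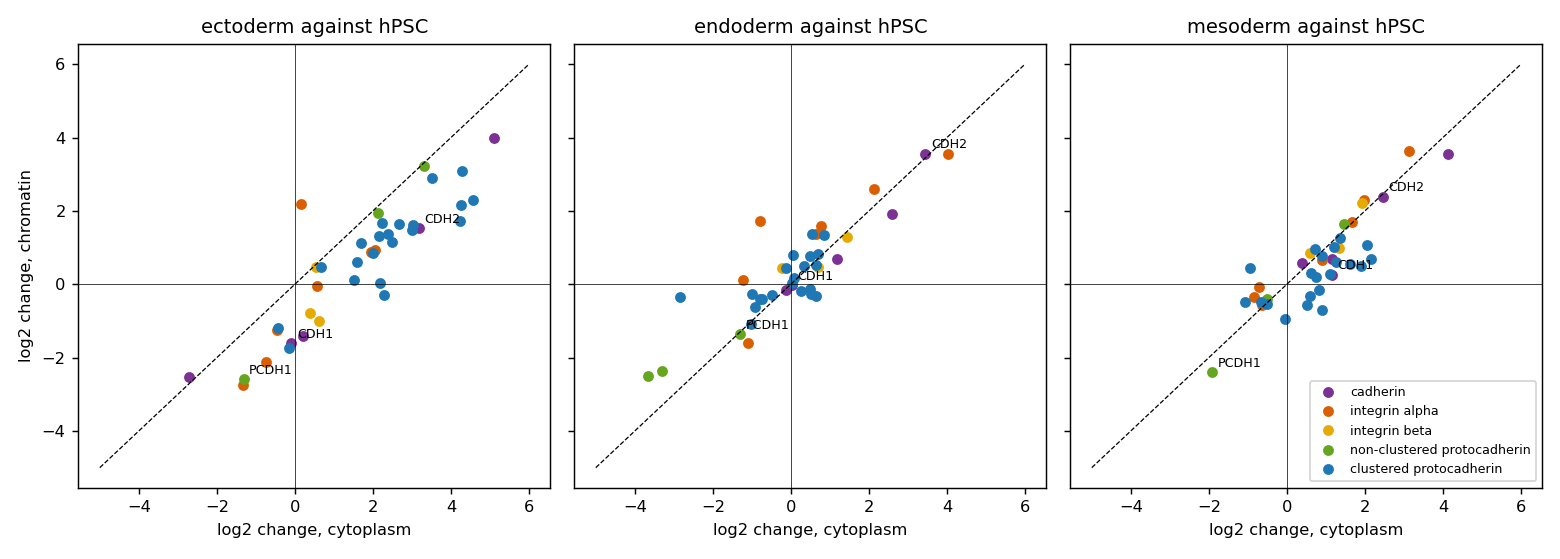
Log2 change against hPSC of each of the members tested in both fractions, in the cytoplasm (x axis) and on chromatin (y axis), coloured by family, for ectoderm, endoderm and mesoderm-labelled cells. The dashed line marks equal changes; most ectoderm points lie below it, and the members' median difference is -1.21.

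Within each cell type, RNA of the members was lower in the cytoplasm than in the nucleus. In hPSC 57 of 59 members tested were lower and 1 higher (65.7% of all 13997 genes called, 30.0% called lower), with a median of -3.11 beside 0.11 over all genes. In ectoderm 53 of 83 were lower and 5 higher (53.5% of all genes called, 24.8% lower), with a median of -1.26. In endoderm 57 of 63 were lower and none higher (69.8%, 35.5% lower), with a median of -3.23, and in mesoderm-labelled cells 58 of 64 were lower and 1 higher (63.3%, 31.2% lower), with a median of -2.47. Medians over all genes were 0.03, 0.01 and 0.00 in these cell types, because each fit centres the genes, so a value is relative to the other genes of the same fractions. CDH1 fell from 315.85, 399.34 and 367.5 TPM in hPSC nuclei to 9.61, 13.64 and 18.72 TPM in the cytoplasm, a change of -4.31 ± 0.16 (edgeR, adjusted p = 1.8e-10). In ectoderm nuclei CDH1 was 126.13, 72.57 and 123.54 TPM, against 19.14, 11.86 and 18.49 TPM in the cytoplasm (-2.97 ± 0.14, edgeR, adjusted p = 1.3e-08). Neither pair overlaps. For CDH2 the change was -1.80 ± 0.12 in ectoderm, against -3.59 ± 0.22 in hPSC, -3.23 ± 0.18 in endoderm and -3.12 ± 0.21 in mesoderm-labelled cells (edgeR, adjusted p at most 8.9e-07). ITGA5 in endoderm was 481.67, 223.53 and 309.48 TPM in the nucleus and 20.57, 14.93 and 16.13 TPM in the cytoplasm (-4.70 ± 0.34, edgeR, adjusted p = 1.6e-08). PCDHA12 had no count in the 3 mesoderm-labelled cytoplasm libraries and 7.35, 6.2 and 4.93 TPM in the nucleus, at least 221-fold lower with a floor of 3 counts over the group.

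**Figure D5:**
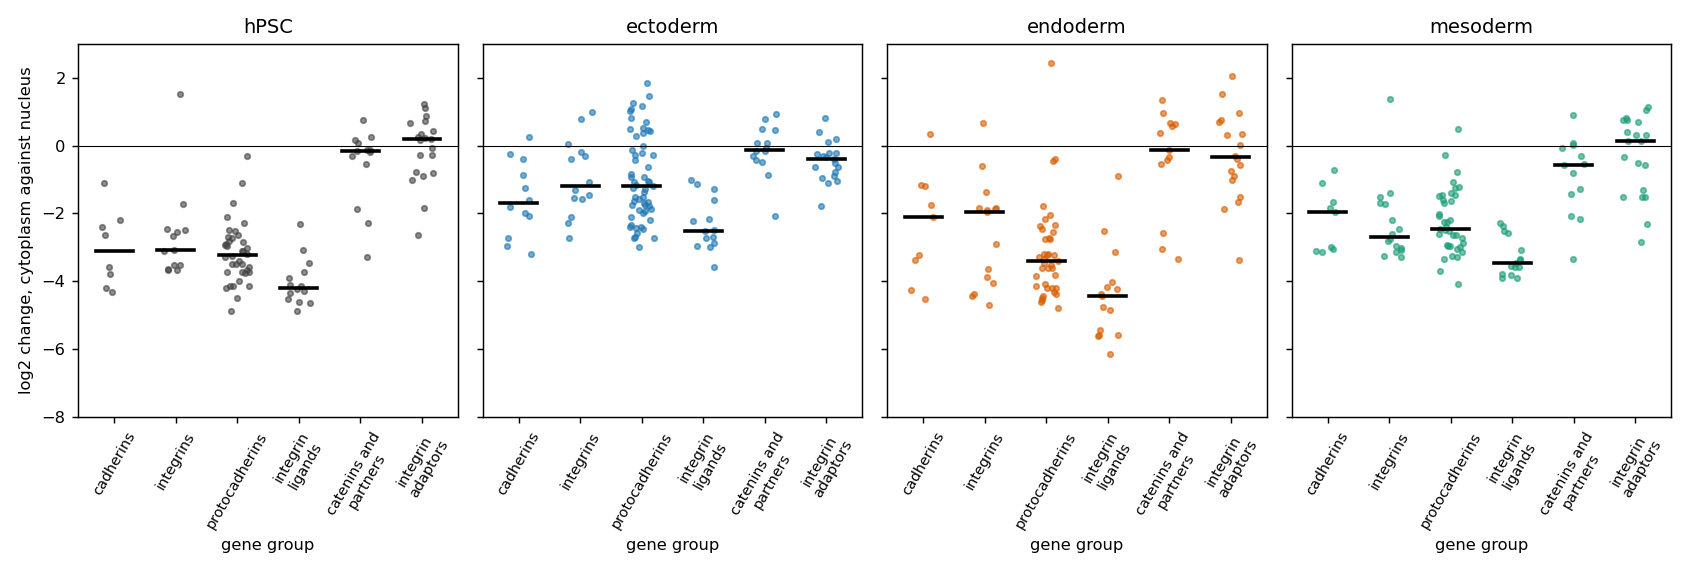
Log2 change, cytoplasm against nucleus, of each gene (points) of 6 groups in the 4 cell types, with a black bar at the group's median. Cadherins, integrins, protocadherins and integrin ligands lie mostly below 0, and catenins and integrin adaptors lie around it; 1 point, PCDHA12 in mesoderm, is below the axis.

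The exceptions and the partner genes frame that pattern. ITGAE, one of 22 members with no protein-coding transcript in the hPSC assembly, was higher in the cytoplasm of hPSC (1.53 ± 0.23, edgeR, adjusted p = 5.3e-05) and of mesoderm-labelled cells (1.38 ± 0.20, edgeR, adjusted p = 0.00012). In ectoderm PCDHB4 (1.25 ± 0.42) and PCDHB6 (1.08 ± 0.37) were among the 5 higher members (edgeR, adjusted p = 0.023 and 0.024). Neither call held without each library: PCDHB4 was 1.10 without nucleus replicate 3 (adjusted p = 0.082) and 1.15 without cytoplasm replicate 1 (adjusted p = 0.069), and 1.09 in DESeq2 (adjusted p = 0.067). PCDHB6 was 0.65 without nucleus replicate 2 (adjusted p = 0.066) and 0.95 without cytoplasm replicate 2 (adjusted p = 0.074), all but the DESeq2 value by edgeR. Integrin ligands, which are secreted matrix proteins, were lower in the cytoplasm for each gene tested, 14 of 14 in ectoderm and in hPSC and 15 of 15 in endoderm and in mesoderm-labelled cells. Their medians were -2.50 in ectoderm, -4.19 in hPSC, -4.44 in endoderm and -3.45 in mesoderm-labelled cells. Catenins and other junction partners gave 1 higher and 4 lower of 13 in hPSC, 4 and 5 of 14 in ectoderm, 5 and 4 of 13 in endoderm and 1 and 8 of 13 in mesoderm-labelled cells, with medians from -0.56 to -0.12. Integrin adaptors gave 6 higher and 6 lower of 20 in hPSC and medians from -0.40 to 0.19 over the cell types. The groups were not tested against each other.

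Between chromatin and nucleoplasm the members moved less. In hPSC 3 were higher and 11 lower on chromatin (30.6% of all genes called, 13.5% lower, median -0.32), in ectoderm 3 and 37 (43.2%, 21.7% lower, median -0.44) and in endoderm 2 and 46 (53.6%, 30.7% lower, median -1.50 beside -0.12 over all genes). With limma on TPM the ectoderm count fell from 40 to 20. The hPSC count rests on single libraries: it was 6, 8 and 7 without nucleoplasm replicate 1, 2 or 3, and with total counts in place of TMM factors the split was 3 and 3. ITGB1 was 977.94, 715.44 and 842.36 TPM in endoderm nucleoplasm and 217.16, 241.04 and 167.02 TPM on its chromatin, without overlap (-2.67 ± 0.26, edgeR, adjusted p = 8.4e-07). CDH2 changed by -2.51 ± 0.17 and CDH1 by -2.37 ± 0.17 in endoderm (edgeR, adjusted p = 3e-08 and 5.1e-08). ITGA7 was an exception, higher on chromatin in hPSC (1.64 ± 0.23), ectoderm (0.93 ± 0.10) and endoderm (0.70 ± 0.17), each called by edgeR. Its hPSC chromatin libraries held 109.05, 107.24 and 219.12 TPM and the nucleoplasm 30.85, 33.5 and 31.54 TPM, which do not overlap.

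The partners of these adhesion proteins were read from fixed lists, against hPSC cytoplasm. As a background, 75.9% of all genes passed the threshold for ectoderm, 58.1% for endoderm and 68.0% for mesoderm-labelled cells. Rises alone made up 38.0%, 29.6% and 34.6% of all genes, in the same order. Whether the lists differ from these shares was not tested. Of 12 catenins and junction partners tested, 10 rose in ectoderm and none fell, 7 rose and 1 fell in endoderm, and 9 rose and 1 fell in mesoderm-labelled cells (medians 0.72, 0.52 and 0.88). CTNND1, the p120 catenin that stabilises cadherins at the membrane, rose by 1.06, 0.50 and 0.96 (edgeR). Of 14 integrin ligands, 13 rose in ectoderm, 9 in endoderm and 13 in mesoderm-labelled cells, with 1, 1 and none lower (medians 1.71, 1.55 and 1.45). FN1 (fibronectin), the ligand of the ITGA5 and ITGB1 pair, rose by 0.53 ± 0.15, 5.82 ± 0.17 and 5.97 ± 0.17, and LAMB1, a laminin chain, rose by 4.23, 3.18 and 4.08 (edgeR). Of 19 integrin adaptors, 6 rose and 6 fell in ectoderm, 15 and 1 in endoderm, and 12 and 2 in mesoderm-labelled cells. Epithelial genes did not fall as a list where CDH2 rose: of 13, 4 rose and 5 fell in ectoderm, 11 rose in endoderm, and 11 rose and 1 fell in mesoderm-labelled cells. ESRP1, an epithelial splicing factor, fell in ectoderm and in mesoderm-labelled cells (-0.64 and -0.33) and differed by -0.06 in endoderm (edgeR, adjusted p = 0.56). Of the repressors of CDH1, SNAI1 rose by 0.56 ± 0.22 in endoderm (edgeR, adjusted p = 0.037), fell by 0.72 ± 0.23 in mesoderm-labelled cells (edgeR, adjusted p = 0.012) and differed by 0.09 in ectoderm (edgeR, adjusted p = 0.71). SNAI2, ZEB1 and ZEB2 are not listed in the hPSC assembly, and TWIST1 is listed in none. In ectoderm cytoplasm ZEB1 averaged 4.03 TPM, ZEB2 5.54 TPM and SNAI2 2.22 TPM.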

How the data were processed

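Total RNA libraries of H1 cells were compared over 4 cell types and 4 fractions (46 libraries, 4990408 to 21298678 counts each). The deposited tables hold whole-number counts and TPM per transcript, on a separate transcript assembly for each cell type. The submitters' processing notes name STAR, RSEM and hg38, with no role or version given here. How the authors counted reads, and whether by strand, is not given in the sources used here. The authors' TPM values are scaled per length and per library.

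Counts and TPM were summed over transcripts by Ensembl gene, and 2 per-sample columns of the tables were not used. Of 45 replicate pairs none was identical, and the lowest chi-square per degree of freedom was 4.06. Counts were tested with edgeR 4.0.16 in R 4.3.3 (two-sided quasi-likelihood test, genes kept by filterByExpr at 10 counts or more, TMM scaling, Benjamini-Hochberg over all genes tested, adjusted p under 0.05). Cell types were compared within a fraction in 1 fit, over the genes in all assemblies, and fractions within a cell type. The SE of an edgeR change was derived from its test, as the size of the change over the square root of the F statistic. The CDH1 to CDH2 ratio carried 0.5 counts on each gene and an exact permutation test. Alternatives were DESeq2 1.42.0, RLE or no scaling factors, no filter, a 2-fold minimum, a replicate block, each library left out, a fit of 2 groups, and limma 3.58.1 on log2(TPM + 1) for genes with a mean TPM of at least 1, a scale that understates changes of low genes. Of the fits, only the edgeR comparison of ectoderm with hPSC in the cytoplasm was tested on simulated counts. Mesoderm nucleoplasm has 1 library and was not tested. An RNA polymerase inhibitor named in the design text but in no sample label, actinomycin D, defines no group here.

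Genes were named by rule: CDH1 and CDH2, up to 5 members per family with the highest mean TPM, up to 3 called members per family and direction with at least 2 CPM, and the first 4 tested genes of each partner list with SNAI1, SNAI2, ZEB1, ZEB2, TWIST1 and ESRP1. CPM, used for that floor only, were computed from the counts. The members and lists were chosen with earlier results of these data known. ITGA2, PCDH10 and PCDHB15 lie outside the rule, and they and the comparisons of CDH24 and PCDHB14 shown were chosen after their values were seen.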

Additional observations from a re-analysis of the deposited data

Results flagged for a closer look

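Between cytoplasm and chromatin, the change against hPSC differed for 25 members in ectoderm, 6 in endoderm and 9 in mesoderm-labelled cells, by an edgeR test of the difference itself (chromatin change minus cytoplasm change, adjusted p under 0.05). Of all genes 23.3%, 40.8% and 23.0% were called, so of the 40 members tested the share in mesoderm-labelled cells is near the background and that in endoderm below it. With limma on TPM, 9, 4 and 1 members were called. Groups of 3 libraries were not searched for outlying libraries.

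In ectoderm both classic cadherins stood lower on chromatin than in the cytoplasm, relative to hPSC. CDH1 had a difference of -1.59 (adjusted p = 0.00018) and CDH2 one of -1.73 (adjusted p = 0.00015). Larger ones were those of 3 clustered protocadherins: PCDHB11 -2.33 (adjusted p = 0.0047), PCDHGB6 -2.61 (adjusted p = 0.00026) and PCDHGB5 -2.63 (adjusted p = 0.00014). ITGAE, counted on transcripts with no protein-coding annotation, was the 1 member with a higher change on chromatin, by 1.97 (adjusted p = 3.5e-06). On TPM the differences of PCDHB11 (0.59, in the other direction), PCDHGB6 (-0.67), PCDHGB5 (-0.90) and ITGAE (0.27) did not pass (limma, adjusted p = 0.12, 0.18, 0.058 and 0.72), and those of CDH1 and CDH2 did.

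In endoderm 2 of the named integrin alpha chains stood higher on chromatin: ITGAE by 2.44 (adjusted p = 3.5e-07) and ITGA7, the muscle laminin receptor chain, by 1.25 (adjusted p = 0.01). PCDHA13, counted on transcripts that match no annotated one, was also higher on chromatin, by 2.41 (adjusted p = 0.0046). On TPM, ITGAE (-0.02) and PCDHA13 (0.24) did not pass (limma, adjusted p = 0.97 and 0.56). PCDHA11 was lower, by -1.06 (adjusted p = 0.04), a call that was lost in 7 of the fits that left out 1 library, with values of -1.09 to -0.93 and adjusted p from 0.055 to 0.096.

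In mesoderm-labelled cells the named differences were all negative: CDH1 -1.01 (adjusted p = 0.011), PCDHB9 -1.53 (adjusted p = 0.02), PCDHGB6 -1.61 (adjusted p = 0.02) and PCDHGB5 -1.72 (adjusted p = 0.013). None of these 4 passed on TPM (values from -0.84 for CDH1 to -0.08 for PCDHGB6, limma, adjusted p from 0.12 to 0.90). All p-values here not named as limma's are edgeR's, adjusted over all genes tested, and neighbouring genes of a protocadherin cluster can share reads.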

How the results depend on the processing

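Cell type and assembly change together, a member missing from an assembly has no value, and clustered neighbours can share reads. These limits hold under every setting tried. Counts of called members came within 1.5 times of the main count in all 24 comparisons with DESeq2, with RLE factors, without the filter and with the replicate block, which gave 31, 19 and 28 members in ectoderm, endoderm and mesoderm-labelled cytoplasm. Asking for a 2-fold change as well left 12 members in endoderm cytoplasm (from 19), 18 in mesoderm cytoplasm (28), 16 between endoderm and mesoderm cytoplasm (27), 17 in the endoderm nucleus (26), 14 in the mesoderm nucleus (22) and 11 on mesoderm chromatin (22). On chromatin against nucleoplasm it left 1 in hPSC (14) and 21 in ectoderm (40). The fit of 2 groups gave 37 in the mesoderm nucleus (from 22), over more members. It also called 70.8% of all genes there, against 54.0% in the main fit. With total counts and no TMM factors, chromatin against nucleoplasm in hPSC gave 6, and the mesoderm difference of differences gave 5 (from 9). With limma on TPM, chromatin against nucleoplasm in ectoderm gave 20, and the differences of differences gave 9 in ectoderm (from 25) and 1 in mesoderm. Leaving out single libraries gave 6 to 20 in chromatin against nucleoplasm in hPSC. The cause was not tested, beyond the stricter rule of the 2-fold setting.

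Of 255 changes of named members, 249 kept direction and side of the threshold with DESeq2 and 249 with RLE factors, 245 without TMM factors, 255 without the filter, and 209 of 254 with limma on TPM. Leaving out 1 library kept 1549 of 1632 values. The 11 cadherin ratios kept their direction under every alternative run, though p could not go below 0.1. Without TMM factors, the median of all genes moved by -0.39 in the endoderm nucleus, 0.19 in the mesoderm nucleus and -0.60 in endoderm nucleoplasm, by -0.12 to 0.72 in the fits of fractions, and by at most 0.16 elsewhere. RLE factors moved it by 0.15 to 0.25 in the differences of differences. Changes are relative to that median.

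Reversals were of changes of 0.263 or nearer to 0, or came with TPM. With RLE factors and DESeq2, CDH1 in endoderm became -0.025 and -0.026 in the cytoplasm, 0.040 and 0.040 on chromatin, and 0.107 and 0.107 as a difference of differences. The fit of 2 groups gave CDH1 0.034 on endoderm chromatin. Without TMM factors, CDH1 in the mesoderm nucleus was 0.084 and the endoderm difference of differences of CDH2 was -0.095. On TPM, CDH1 was 0.240 in ectoderm cytoplasm and 0.807 in the mesoderm nucleus, the mesoderm difference of differences of CDH2 was 0.353, and CDH4 was 0.465 in endoderm nucleoplasm. PCDHB11 was 0.588 in the ectoderm difference of differences, PCDHB3 was 0.103 in the mesoderm nucleus, and ITGAE was -0.060 in the ectoderm nucleus, -0.616 on endoderm chromatin and -0.017 in the endoderm difference of differences. Leaving out single libraries, CDH1 ran from -0.218 to 0.074 in ectoderm cytoplasm, -0.151 to 0.188 in endoderm cytoplasm, -0.081 to 0.027 on endoderm chromatin and -0.067 to 0.482 on mesoderm chromatin. The CDH2 endoderm difference of differences ran from -0.193 to 0.234.

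Replicate numbers were not used as pairs in the main fits, as no label says what they share. Deviations of same-numbered libraries correlated above 0.1 in 5 of 18 pairs of cell types in the cytoplasm and 4 of 18 in the nucleus. In the nucleoplasm it was 1 of 9, and on chromatin 5 of 18, with a highest value of 0.447. Over pairs of fractions it was 3 of 18 in ectoderm, 4 of 18 in hPSC, 1 of 18 in endoderm and 1 of 9 in mesoderm. Differently numbered libraries were not correlated, so these values cannot show whether the numbers pair the libraries. With the replicate block, 4 of the 255 changes no longer passed: PCDHGA2 between ectoderm chromatin and nucleoplasm (-1.27), ITGA6 (-0.56) and PCDHGA11 (-0.54) on mesoderm chromatin, and PCDHGB6 in the mesoderm nucleus (0.72).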

Other observations

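In endoderm and mesoderm-labelled cytoplasm, genes of the mesenchymal list and most of the epithelial list both rose. Of 6 tested genes of a mesenchymal list, 3 rose and 1 fell in ectoderm, 6 rose in endoderm, and 4 rose and 1 fell in mesoderm-labelled cells, against hPSC. In these comparisons 75.9%, 58.1% and 68.0% of all genes were called, and 38.0%, 29.6% and 34.6% were higher. VIM (vimentin, an intermediate filament protein) rose by 0.66 ± 0.15, 1.65 ± 0.15 and 2.33 ± 0.16 in that order (edgeR, adjusted p at most 0.001), and MMP2, a matrix protease, by 1.66 ± 0.15, 2.41 ± 0.15 and 2.47 ± 0.15 (edgeR). EPCAM, an epithelial adhesion protein, rose by 1.41 ± 0.13 in endoderm and 1.08 ± 0.13 in mesoderm-labelled cells (edgeR), and differed by -0.17 in ectoderm (edgeR, adjusted p = 0.23). GRHL2, an epithelial transcription factor, rose by 0.44 ± 0.14, 1.34 ± 0.14 and 2.42 ± 0.14 (edgeR).

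Changes of integrin ligands also differed between cytoplasm and chromatin. In the difference of differences, 11 of 14 ligand genes were lower and none higher in ectoderm (median -1.60), 8 were higher and 1 lower in endoderm (median 1.14), and 4 were lower and none higher in mesoderm-labelled cells (median -0.43). These are counts of edgeR calls, beside medians of all genes of -0.08, -0.21 and -0.16. Of all genes, 23.3% were called in ectoderm (14.0% lower), 40.8% in endoderm (14.2% higher) and 23.0% in mesoderm-labelled cells (16.1% lower). With 14 genes, the counts are a description of the ligands tested.

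The single mesoderm nucleoplasm library held 485.03 TPM of ITGB1, 416.00 TPM of CDH3, 367.32 TPM of CDH1, 187.88 TPM of ITGB5, 148.55 TPM of PCDHGC3 and 107.11 TPM of CDH2. Endothelial markers summed to 1.60 to 74.22 TPM over all libraries, the highest in an endoderm library, and neural crest markers to 2.42 to 123.94 TPM, the highest in an hPSC library. The part of these markers in the results was not tested.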
